A study of Homo sapiens with 32 samples.

Results

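The cultures described here are the vehicle arm of a time course in SK-N-BE(2), a human neuroblastoma line with an amplified MYCN gene. Cells were plated at 2000000 per well, left overnight to attach, and given the vehicle, 0.1% ethanol, the next morning. RNA from 4 vehicle samples at 12 h and 4 at 24 h was compared over all genes, so that each difference rests on 8 of the 32 samples. The spread behind its p-value was estimated over all 32. The 8 vehicle samples were chosen by treatment and time alone and by no measured value, and none of them received cannabidiol (CBD). The other 24 samples were vehicle cultures at 3 and 6 h and cultures given 20 μM CBD for 3, 6, 12 or 24 h. A single cell line was used, and the added 12 h were at once time after vehicle, time in culture, age of the medium and clock time, which cannot be told apart.

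Cells in a well consume oxygen, glucose and lipid as they divide. When oxygen falls, hypoxia-inducible factors (HIFs) are no longer marked for degradation and raise genes for glucose use, lactate export and vessel growth. When cholesterol in the endoplasmic reticulum (ER) falls, SREBP factors are cut free and raise the enzymes of sterol synthesis, and when unfolded protein builds up, the heat shock factor and the sensors of the ER raise chaperones.

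Levels are given as FPKM, read numbers scaled by exon length and by the total mapped in the sample, and differences on the log2(FPKM + 1) scale, which understates the change of low genes. An error after a level is the SD of 4 samples, and an error after a difference is the standard error of the limma fit. A gene was called at a Benjamini-Hochberg adjusted p under 0.01. All 10 markers of adrenergic neuroblastoma that were checked stood above 1 FPKM, with summed levels of 2998 to 3166 FPKM at 12 h and 2933 to 3012 FPKM at 24 h. MYCN was at 1584, 1543, 1560.2 and 1527 FPKM at 12 h and at 1502, 1572, 1544 and 1597 FPKM at 24 h, with overlapping groups and no detectable difference (adjusted p = 1). The 10 mesenchymal markers summed to 482 to 499 and 517 to 542 FPKM, mostly from VIM and TWIST1, while PRRX1, YAP1, FOSL1 and COL1A2 were near 0. The mesenchymal markers did not move together. VIM and COL1A1 were called higher, with differences of 0.33 and 0.32, and TWIST1 and SNAI2 were called lower, with differences of -0.16 and -0.37. The 7 markers of Schwann cells or fibroblasts summed to 63.7 to 67.0 and 52.9 to 60.7 FPKM, mostly from LUM, with SOX10 near 0. The 5 epithelial markers summed to 2.51 to 2.84 and 3.94 to 4.40 FPKM, mostly from EPCAM, and the 4 blood markers measured were all under 1 FPKM. The part of other cell types in the results was not tested. In such bulk RNA, fewer cells of a kind and less RNA per cell cannot be told apart.

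Of 12621 genes tested, 4977 were called, which is 39.4%. Of these, 2014 were higher at 24 h (16% of the genes tested) and 2963 were lower (23.5%). Most differences were small. Their median absolute size was 0.19 on the log2 scale, 162 called genes differed by 0.5 or more, and 12 by 1 or more. Among the 162, 139 were higher at 24 h and 23 were lower, so the larger changes were mostly rises. Of the 12 largest, 7 were entries for short RNAs such as microRNAs and the other 5 were H3F3A, NDUFA4L2, SLC16A3, H19 and HIST1H1C.

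The direction of the calls went with expression level. Among 3637 genes with a mean of 1 to 5 FPKM, 27.2% were called higher and 6.38% lower. Among 3183 genes between 20 and 100 FPKM, 7.63% were called higher and 41.4% lower. The median FPKM over all entries of the table was 1.66 to 1.71 in the 12 h samples and 1.87 to 1.94 in the 24 h samples, so these ranges did not overlap. After scaling each sample by its median ratio to the others, 4777 genes were called, of which 51.6% were higher, against 40.5% on the deposited scale. That scaling moved the median difference over all genes by 0.02. As many members of the gene lists below are abundant, their shares are read against 3911 genes with a mean of at least 20 FPKM too, of which 7.93% were called higher and 41.3% lower, and against 8710 genes under it, of which 19.6% were called higher and 15.5% lower.

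**Figure D1:**
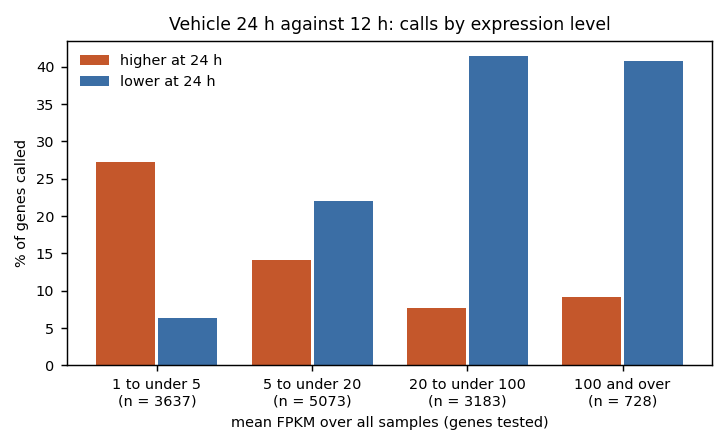
Percent of tested genes called higher (orange bars) or lower (blue bars) at 24 h than at 12 h in vehicle cultures, in 4 classes of mean FPKM over the 32 samples, with the number of genes in each class. Rises were more frequent than falls in the lowest class (27.2% against 6.38%), and falls were more frequent in the other 3 classes.

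Most of the hypoxia-inducible genes listed were higher at 24 h. Of 34 tested members, 27 were called higher at 24 h (79.4%, against 16% of all genes) and none lower, with a median difference of 0.27 against -0.02 over all genes tested. NDUFA4L2, a mitochondrial protein that HIF raises, was at 1.71, 2.70, 2.01 and 2.33 FPKM in the 12 h samples and at 9.11, 5.29, 11.3 and 7.94 FPKM in the 24 h samples. The groups did not overlap, though the 24 h samples differed widely among themselves. The difference was 1.53 ± 0.16 (adjusted p = 2.7e-08). The gene lies at chr12:57628686-57634498 of GRCh37, where an exon of SHMT2 overlaps it on the other strand. The study's methods describe the reads as stranded, and whether FPKM was counted by strand is not stated in the sources used here. SLC16A3, the lactate exporter MCT4, was at 5.37, 6.02, 6.04 and 6.65 FPKM and then at 18.4, 15.6, 17.9 and 14.2 FPKM. Each 24 h sample was well above the highest 12 h sample, with a difference of 1.31 ± 0.13 (adjusted p = 4.1e-09).

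VEGFA, the growth factor for blood vessels, was at 25.2, 26.1, 27.5 and 29.5 FPKM at 12 h and at 48.9, 45.4, 44.7 and 41.3 FPKM at 24 h, a difference of 0.72 ± 0.07 (adjusted p = 6.7e-09). BNIP3, which directs mitochondria to autophagy, was at 60.7, 61.9, 67.0 and 68.4 FPKM and then at 113, 97.2, 109 and 92.3 FPKM, a difference of 0.66 ± 0.06 (adjusted p = 2.4e-09). In both genes all 24 h samples lay above all 12 h samples. PDK1, the kinase that keeps pyruvate out of mitochondrial oxidation, rose by 0.67 ± 0.06 from 11.7 ± 0.54 to 19.3 ± 1.9 FPKM (SD, n = 4). NDRG1 rose by 0.85 ± 0.08, DDIT4, an inhibitor of mTORC1, by 0.78 ± 0.15, PPFIA4 by 0.75 ± 0.05 and FAM162A by 0.53 ± 0.07. STC1 and the HIF prolyl hydroxylase EGLN3 were called at 0.26 ± 0.06 and 0.24 ± 0.05, but both calls were lost when the fit held only the samples at 12 h and 24 h (adjusted p = 0.014 and 0.017), and the STC1 groups overlapped.

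The 7 tested members that were not called included well-known targets. ADM, which encodes adrenomedullin, was at 38.5 ± 2.1 FPKM at 12 h and 36.0 ± 2.8 FPKM at 24 h (difference -0.10 ± 0.05, adjusted p = 0.11). SLC2A1, the glucose transporter GLUT1, was at 26.9 ± 0.79 and 28.2 ± 1.6 FPKM (difference 0.06 ± 0.05, adjusted p = 0.35). The other 5 were EGLN1, ANKRD37, ERO1A, HILPDA and HMOX1. Of the 41 genes listed, those under the level filter included CA9, a carbonic anhydrase often used to mark hypoxic cells, at 0.479 to 0.626 FPKM at 12 h and 0.670 to 1.05 FPKM at 24 h.

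HIFs bind DNA at a short core, and ACGTG was the only form of it sought here. The promoters of BNIP3, ALDOC and LDHA are printed because all 3 hold this core, while BNIP3 and ALDOC rose and LDHA, described below, fell. The core was sought on both strands of the 250 bases before the RefSeq start site (GRCh38.p14), and CACGTG counts once on each strand. It was found in 13 of the 27 tested hypoxia genes with a sequence (48.1%) and in 9 of the 20 tested members of the glycolysis list (45%). The shares were 24.3% of the promoters of 9032 tested genes and 18.7% of all 27305 promoters. The windows are chr10:131981924-131982173 on the minus strand for BNIP3, chr17:28576896-28577145 on the minus strand for ALDOC and chr11:18394313-18394562 on the plus strand for LDHA. They are written 5′ to 3′ with the matches in capitals.
BNIP3: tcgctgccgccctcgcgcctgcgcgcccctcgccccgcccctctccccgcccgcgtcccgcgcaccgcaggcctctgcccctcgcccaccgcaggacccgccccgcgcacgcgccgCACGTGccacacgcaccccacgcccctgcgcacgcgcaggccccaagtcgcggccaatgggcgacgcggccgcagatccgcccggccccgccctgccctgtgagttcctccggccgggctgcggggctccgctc
ALDOC: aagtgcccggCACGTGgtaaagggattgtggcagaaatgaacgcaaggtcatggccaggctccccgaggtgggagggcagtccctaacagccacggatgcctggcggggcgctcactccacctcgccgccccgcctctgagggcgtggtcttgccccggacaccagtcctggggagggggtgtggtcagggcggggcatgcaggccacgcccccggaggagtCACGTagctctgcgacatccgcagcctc
LDHA: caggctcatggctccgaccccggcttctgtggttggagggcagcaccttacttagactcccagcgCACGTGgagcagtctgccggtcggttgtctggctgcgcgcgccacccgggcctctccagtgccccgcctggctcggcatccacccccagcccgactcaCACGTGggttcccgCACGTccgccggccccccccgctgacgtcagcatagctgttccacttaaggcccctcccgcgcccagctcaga
The matches begin 134 and 133 bases before the start in BNIP3, 240, 239 and 28 in ALDOC, and 185, 184, 87, 86 and 73 in LDHA. They are matches of letters, mostly within CACGTG, and were not tested for binding by HIFs or by any other factor. The genes were listed by function, so the shares describe the lists and not a change in these cultures.

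Glycolytic enzymes were mostly higher at 24 h. Of 20 tested, 14 were called higher (70%, against 16%) and 2 lower, with a median of 0.13. The list also held PGM1, GYS1 and GBE1 of glycogen metabolism, so these counts are not of glycolysis alone. PGM1 was called higher at 0.16, and GYS1 and GBE1 were not called. The brain aldolase ALDOC was at 41.8, 42.2, 44.3 and 43.5 FPKM at 12 h and at 86.2, 76.5, 83.6 and 78.0 FPKM at 24 h. The groups were far apart, and the difference was 0.90 ± 0.04 (adjusted p = 8.2e-14). The phosphofructokinase PFKP rose by 0.42 ± 0.03 and hexokinase HK2 by 0.30 ± 0.05. The abundant enzymes PGK1, ENO1, TPI1 and PKM rose by 0.21 ± 0.02, 0.13 ± 0.03, 0.12 ± 0.03 and 0.09 ± 0.02. Of these, ENO1 lost its call under quantile normalization (adjusted p = 0.15) and PKM lost it when the fit held only the samples at 12 h and 24 h (adjusted p = 0.016).

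Both lactate dehydrogenase genes were called in the other direction. LDHA was at 27.3, 25.5, 26.0 and 25.7 FPKM at 12 h and at 19.2, 20.1, 20.9 and 21.1 FPKM at 24 h, with no overlap, and it fell by 0.35 ± 0.03 on the log2 scale (adjusted p = 1.0e-10). LDHB was at 887 ± 14 and 821 ± 27 FPKM (difference -0.11 ± 0.03, adjusted p = 0.0018), a call lost under both other scalings and in the fit of the samples at 12 h and 24 h only. Among 6 tested genes of glucose sensing by MondoA, 3 were called higher (50%, against 16%) and 1 lower (16.7%, against 23.5%). The member called lower was MLX, at -0.12. TXNIP, an arrestin that MondoA raises when glucose enters the cell, was at 35.6, 34.2, 33.4 and 34.3 FPKM at 12 h and at 51.9, 50.0, 50.3 and 51.7 FPKM at 24 h, a rise of 0.56 ± 0.03 with no overlap.

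**Figure D2:**
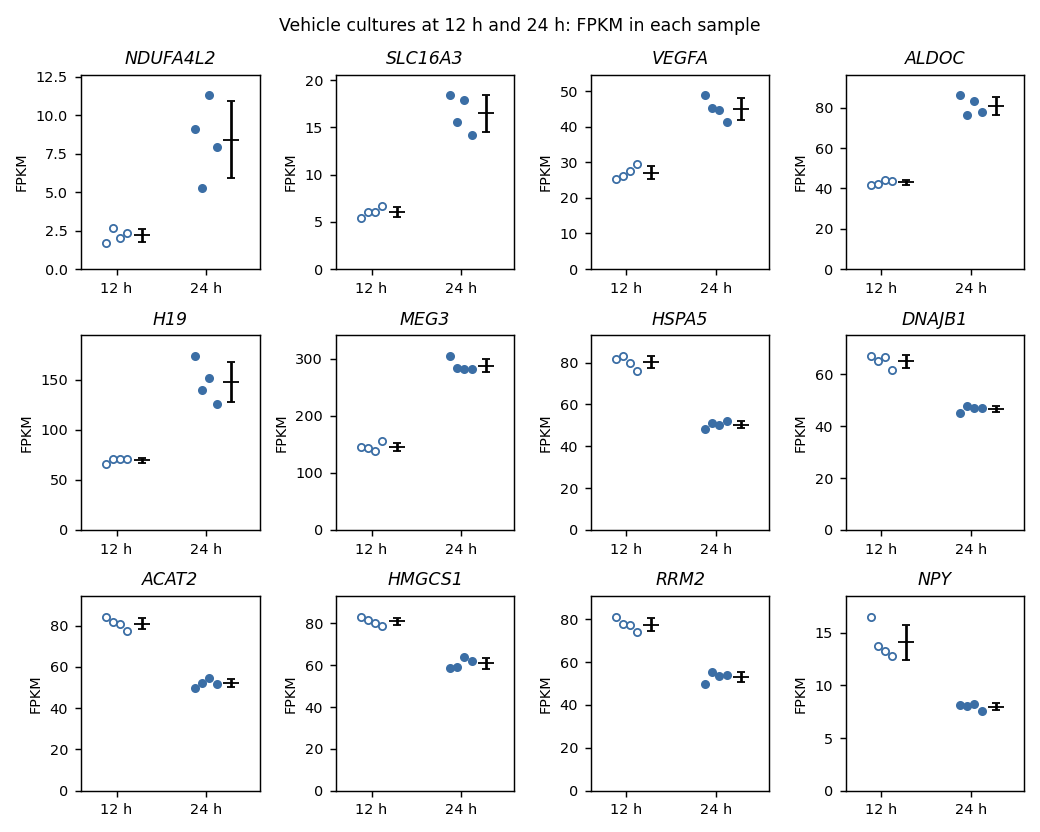
FPKM of 12 genes in each vehicle sample at 12 h (open points) and 24 h (filled points), with the mean ± SD of the 4 samples beside them. The 4 samples at 24 h lie wholly above those at 12 h in the first 6 panels and wholly below them in the other 6.

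Several of the largest rises lay outside these lists. H19, an imprinted long noncoding RNA at chr11:2016396-2025782, was at 66.2, 71.3, 70.7 and 70.4 FPKM at 12 h and at 174, 140.1, 152 and 126 FPKM at 24 h, a difference of 1.07 ± 0.08 (adjusted p = 1.3e-10). IGF2, the growth factor gene of the same imprinted region, was at 1.39, 1.61, 1.61 and 1.72 FPKM and then at 4.32, 3.48, 4.17 and 3.18 FPKM, a difference of 0.89 ± 0.07 (adjusted p = 2.3e-10). MEG3, an imprinted noncoding RNA at chr14:101245747-101327368, was at 146, 144, 138 and 155 FPKM and then at 305, 284, 283 and 282 FPKM, a difference of 0.98 ± 0.06 (adjusted p = 4.8e-12). None of the 3 had overlapping groups. Of the 50-base words in IGF2 transcripts, 40.7% also occur in transcripts of other genes such as INS-IGF2, so its level is uncertain.

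The other genes among the 15 largest rises included TPPP3, SHC2, HBQ1, OLFM2 and PHYHIP, which rose by 0.85 ± 0.07, 0.85 ± 0.06, 0.84 ± 0.10, 0.81 ± 0.07 and 0.80 ± 0.05 to means between 2.88 and 8.59 FPKM. H3F3A, which encodes histone H3.3, was below 0.02 FPKM in all 12 h samples and at 4.75, 8.84, 4.04 and 9.22 FPKM at 24 h. As 18.9% of its 50-base words also occur in copies of the gene, its level is uncertain and no fold is given. It also varied within other groups, with a mean of 1.53 ± 3.0 FPKM in vehicle at 6 h and 1.52 ± 3.0 FPKM in CBD at 24 h (SD, n = 4). Of 18 replication-dependent histone genes listed, 8 passed the filter, all under 20 FPKM. Of these, 5 were called higher (62.5%, against 16% of all genes and 19.6% of those under 20 FPKM) and none lower (median 0.57). HIST1H1C was at 5.50, 6.15, 6.19 and 5.35 FPKM and then at 15.3, 11.3, 12.7 and 11.7 FPKM (difference 1.01 ± 0.10), without overlap. HIST1H2AC rose by 0.82 ± 0.15 and HIST1H2BD by 0.59 ± 0.09. Most transcripts of these genes end without a poly(A) tail, and the libraries were made from polyadenylated RNA.

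Replication genes moved the other way. Of 41 genes of DNA replication and S phase, 32 were called lower at 24 h (78.0%, against 23.5% of all genes, and 28 of the 31 at or above 20 FPKM, which is 90.3% against 41.3%) and none higher, with a median of -0.23. RRM2, a subunit of ribonucleotide reductase made in S phase, was at 80.9, 77.7, 77.2 and 73.9 FPKM at 12 h and at 49.9, 55.2, 53.6 and 53.9 FPKM at 24 h, a difference of -0.53 ± 0.04 (adjusted p = 1.7e-11). All 24 h samples were below all 12 h samples. The sliding clamp PCNA fell by 0.25 ± 0.02 from 214 ± 5.2 to 180.4 ± 5.8 FPKM, the helicase subunit MCM5 by 0.27 ± 0.03 and the polymerase subunit POLA2 by 0.33 ± 0.04. UHRF1, which carries DNA methylation through replication, fell by 0.31 ± 0.04. The 9 that were not called were CDT1, POLA1, POLD1, POLE, PRIM1, LIG1, CHAF1A, CCNE1 and CCNE2.

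Of 41 genes of mitosis and G2, 27 were called lower (65.9%, against 23.5%, and 25 of the 36 at or above 20 FPKM, which is 69.4% against 41.3%) and none higher, with a median of -0.17. FOXM1, a factor that drives this programme, fell by 0.33 ± 0.03 from 90.6 ± 1.6 to 72.0 ± 1.7 FPKM, and CDC20 and CCNB1 fell by 0.27 ± 0.03 and 0.23 ± 0.03. MKI67, the Ki-67 antigen, was at 61.9 ± 4.4 and 58.8 ± 2.0 FPKM with overlapping groups and was not called (difference -0.07 ± 0.07, adjusted p = 0.40). A list of CDK inhibitors and growth arrest genes also held the D-type cyclins CCND1 and CCND3. Of its 27 tested members, 11 were called higher (40.7%, against 16%) and 5 lower (18.5%, against 23.5%), with a median of 0.06. Both cyclins were among those called lower, so these counts are not of arrest genes alone. The stress-responsive SESN3 rose by 0.66 ± 0.06, KLF9 by 0.40 ± 0.03 and the CDK inhibitor CDKN1C by 0.34 ± 0.08. The CDK inhibitors CDKN2C and CDKN1B fell by 0.31 ± 0.02 and 0.22 ± 0.03, and CCND1, which encodes cyclin D1, fell by 0.15 ± 0.03, a call lost under quantile normalization.

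Of 37 ribosome biogenesis genes, 20 were called lower (54.1%, against 23.5%) and none higher (median -0.10). At or above 20 FPKM, 16 of 32 were called lower (50%), near the 41.3% of all genes at that level. Of 78 proteins of the cytosolic ribosome, all at or above 20 FPKM, 17 were called higher (21.8%, against 7.93% of genes at that level) and 2 lower (2.56%, against 41.3%). Under median-ratio scaling 32 were called higher and 2 lower, and under quantile normalization 15 higher and 3 lower. Their median was 0.07, with RPL13A at 0.28 ± 0.04 and RPL4 at 0.21 ± 0.02. Of 77 nuclear genes of the respiratory chain, 48 were called lower (62.3%, against 23.5%, and 48 of the 75 at or above 20 FPKM, which is 64% against 41.3%) and none higher (median -0.16). Under quantile normalization 32 of them were called lower and 2 higher. The complex I subunits NDUFS6 and NDUFB2 fell by 0.44 ± 0.06 and 0.39 ± 0.04, from 127 ± 4.6 to 93.2 ± 2.7 FPKM and from 180.4 ± 9.5 to 137 ± 2.0 FPKM.

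**Figure D3:**
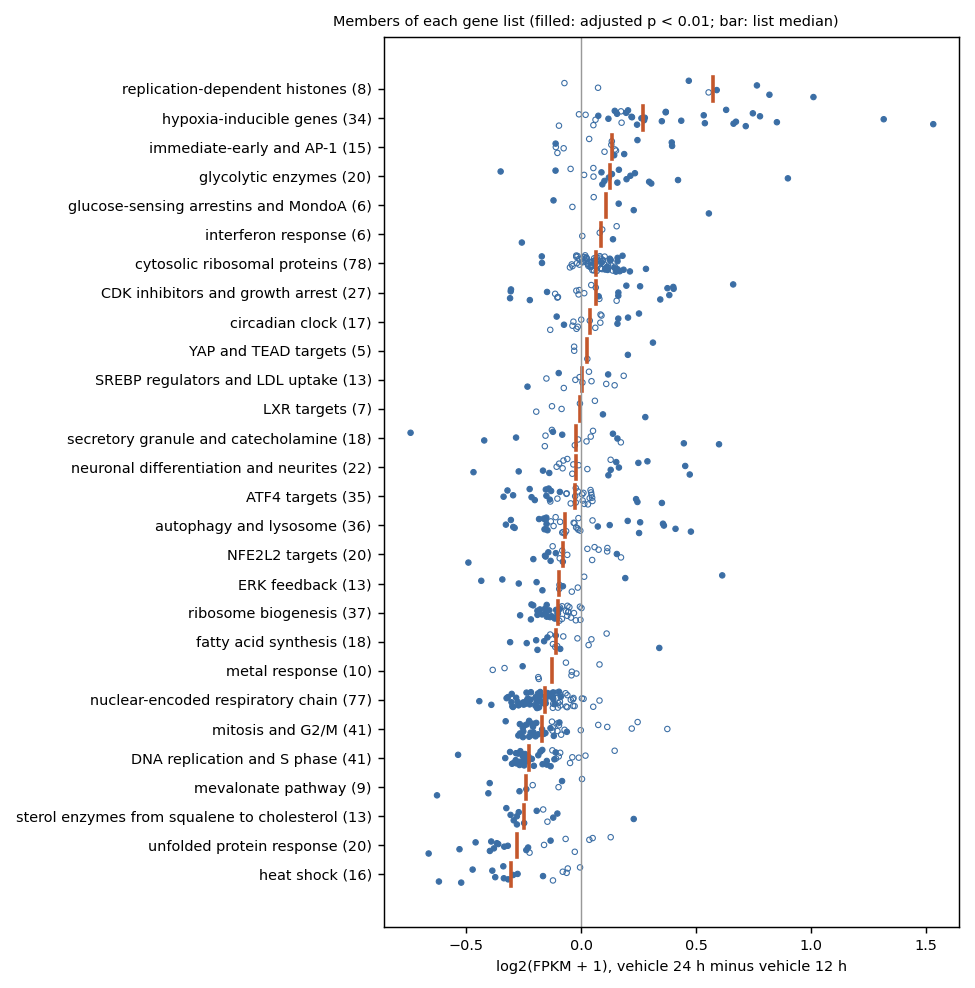
Difference in log2(FPKM + 1), vehicle 24 h minus vehicle 12 h, for each tested member of 28 gene lists, with the number tested in parentheses. Filled points were called at an adjusted p under 0.01, and orange bars mark list medians, which run from -0.31 for heat shock genes to 0.57 for the histone genes.

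Chaperones of the ER and of the cytosol were lower at 24 h. Of 20 genes of the unfolded protein response, 13 were called lower (65%, against 23.5%, and 9 of the 11 at or above 20 FPKM, which is 81.8% against 41.3%) and none higher, with a median of -0.28. HSPA5, the main HSP70 chaperone of the ER, lies at chr9:127997132-128003661 of GRCh37 and was at 81.7, 83.0, 79.7 and 76.2 FPKM at 12 h and at 48.0, 50.9, 50.3 and 51.9 FPKM at 24 h. The groups were far apart, with a difference of -0.66 ± 0.05 (adjusted p = 1.9e-11). SDF2L1, an ER cochaperone, fell by 0.53 ± 0.07, the secreted factor MANF by 0.46 ± 0.05, and the lectin chaperone CALR by 0.36 ± 0.02 from 227 ± 4.3 to 177 ± 4.8 FPKM.

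Of 16 heat shock genes, 11 were called lower (68.8%, against 23.5%, and 9 of the 12 at or above 20 FPKM, which is 75% against 41.3%) and none higher, with a median of -0.31. DNAJB1, a cochaperone of HSP70, was at 67.0, 65.2, 66.6 and 61.6 FPKM and then at 45.0, 47.6, 47.2 and 46.9 FPKM, a difference of -0.47 ± 0.03 (adjusted p = 3.9e-12), and its groups did not overlap. HSPA8, the constitutive HSC70, fell by 0.34 ± 0.03 from 1190.3 ± 21 to 943 ± 28 FPKM. The inducible HSP70 genes HSPA1B and HSPA1A fell by 0.62 ± 0.04 and 0.52 ± 0.04. As 73.6% and 73.7% of their 50-base words occur in other genes, chiefly in each other, they are not separate evidence.

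The promoters of HSPA5 and HSPA8 are printed because each holds the element of its own stress pathway. The ER stress element was sought as CCAAT, 9 bases of any kind and CCACG, and the heat shock element as 3 alternating units of GAA and TTC set 2 bases apart, on both strands of the same 250 bases. The first was found in 5 of the 19 unfolded protein response genes with a sequence (26.3%), against 0.122% of the promoters of tested genes and 0.0806% of all promoters. The second was found in 2 of the 15 heat shock genes with a sequence (13.3%), against 0.299% and 0.439%. The windows, from RefSeq on GRCh38.p14, are chr9:125241344-125241593 for HSPA5 and chr11:123062137-123062386 for HSPA8, both on the minus strand and with the matches in capitals.
HSPA5: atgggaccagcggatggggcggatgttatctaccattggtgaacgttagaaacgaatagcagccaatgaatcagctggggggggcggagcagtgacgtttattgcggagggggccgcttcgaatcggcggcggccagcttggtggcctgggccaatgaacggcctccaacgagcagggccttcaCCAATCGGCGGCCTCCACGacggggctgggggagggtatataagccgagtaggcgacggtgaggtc
HSPA8: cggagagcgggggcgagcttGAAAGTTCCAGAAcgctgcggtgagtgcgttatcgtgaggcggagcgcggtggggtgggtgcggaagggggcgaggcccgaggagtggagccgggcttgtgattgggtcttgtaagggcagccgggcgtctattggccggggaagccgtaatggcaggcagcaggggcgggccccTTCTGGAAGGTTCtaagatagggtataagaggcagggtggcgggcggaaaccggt
The match in HSPA5 begins 66 bases before the start, and those in HSPA8 begin 230 and 55 bases before it. HSPA1A, HSPA1B and DNAJB1 held no match to the heat shock element as sought here. These are matches of letters and were not tested for binding. As the genes were listed by pathway, the shares describe the lists and not a change in these cultures.

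Enzymes of sterol synthesis were lower at 24 h. In the mevalonate pathway 6 of 9 genes were called lower and none higher (median -0.24), and from squalene to cholesterol 10 of 13 were called lower and 1 higher (median -0.25), against 23.5% lower among all genes and 41.3% at or above 20 FPKM, where all the mevalonate genes and 11 of the sterol genes lie. ACAT2, the cytosolic thiolase at the head of the pathway, was at 84.1, 81.6, 80.7 and 77.3 FPKM at 12 h and at 49.8, 52.2, 54.7 and 51.8 FPKM at 24 h. Its difference of -0.63 ± 0.03 had the smallest adjusted p-value of all genes tested, 5.8e-14. HMGCS1, which makes HMG-CoA, was at 83.0, 81.8, 80.2 and 78.8 FPKM and then at 58.5, 59.3, 64.1 and 62.2 FPKM, a difference of -0.40 ± 0.04 (adjusted p = 7.1e-09). In both genes the groups were apart, though 17.5% of ACAT2 and 36.3% of HMGCS1 words of 50 bases occur in transcripts of other genes.

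IDI1, the isomerase that makes dimethylallyl diphosphate, fell by 0.40 ± 0.03, the squalene synthase FDFT1 by 0.28 ± 0.02 and the squalene epoxidase SQLE by 0.25 ± 0.03. TM7SF2, a sterol reductase, was the member called higher, at 0.23 ± 0.07 (adjusted p = 0.0082), and FDPS was called lower at -0.08 ± 0.03 (adjusted p = 0.0088). Both of these calls were lost when single samples were left out. Of 13 genes for SREBP control and LDL uptake, 1 was called higher (7.69%, against 16%) and 2 lower (15.4%, against 23.5%), with a median of 0.01. INSIG1, which holds SREBP in the ER, fell by 0.23 ± 0.03, and SREBF2 was at 79.4 ± 1.3 and 85.7 ± 1.2 FPKM (adjusted p = 0.015). Of LXR targets, which respond to oxysterols, 2 of 7 were called higher (28.6%) and none lower. Of 18 genes of fatty acid synthesis, 8 were called lower (44.4%, against 23.5%) and 1 higher (median -0.11), and at or above 20 FPKM 7 of 12 were called lower (58.3%, against 41.3%), with the elongase ELOVL6 at -0.31 ± 0.04.

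The largest falls included lineage and signalling genes. LIX1 was at 5.96, 5.55, 5.55 and 5.47 FPKM at 12 h and at 2.35, 2.49, 2.70 and 2.25 FPKM at 24 h (difference -0.95 ± 0.05, adjusted p = 3.7e-13). NPY, a neuropeptide stored with catecholamines, was at 16.5, 13.8, 13.3 and 12.8 FPKM and then at 8.10, 8.07, 8.23 and 7.55 FPKM (difference -0.74 ± 0.09, adjusted p = 1.4e-07). No 24 h sample reached the 12 h range in either gene. ID3 and ID2, which inhibit basic helix-loop-helix factors, fell by 0.58 ± 0.08 and 0.57 ± 0.08, and their 3 h vehicle means had been 61.7 and 69.5 FPKM against 32.4 and 36.0 FPKM at 12 h. Others of the 15 were LOC101929626, GFRA2, CHST15, TLX2, MPV17L2 and PDF, with differences from -0.60 to -0.54, beside HSPA5, ACAT2, HSPA1B and RRM2 given above. PDF shares 79.0% of its 50-base words with other genes, chiefly COG8, so its value is uncertain.

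The adrenergic and neuronal genes did not move as 1 group. DBH, which turns dopamine into noradrenaline, was at 7.82, 8.36, 8.56 and 8.17 FPKM and then at 13.8, 12.2, 13.9 and 12.1 FPKM, a difference of 0.60 ± 0.06 (adjusted p = 1.1e-08) with no overlap. In the list of secretory granule and catecholamine genes, 4 of 18 were called higher (22.2%, against 16%) and 5 lower (27.8%, against 23.5%), with the granule protein SCG2 at -0.42 ± 0.05. In that of neuronal differentiation, 8 of 22 were called higher (36.4%) and 4 lower (18.2%). The microtubule proteins STMN4 and DCX rose by 0.47 ± 0.04 and 0.45 ± 0.03, and the neurofilament NEFM fell by 0.47 ± 0.08 from 148 ± 5.2 to 106 ± 3.9 FPKM. Among 13 ERK feedback genes, 6 were called lower (46.2%) and 2 higher (15.4%), with the factors ETV4 and ETV5 at -0.43 ± 0.05 and -0.34 ± 0.04 and the phosphatase DUSP6 at -0.27 ± 0.04. RGS4, a brake on G protein signalling, was at 95.1, 97.0, 104 and 109 FPKM and then at 168, 148, 168 and 139 FPKM, a difference of 0.61 ± 0.08 (adjusted p = 6.3e-07).

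The remaining lists are given beside the 16% of all genes called higher and the 23.5% called lower. Targets of ATF4, the factor of amino acid shortage, had 3 of 35 called higher and 12 lower (34.3%), and 11 of the 21 at or above 20 FPKM lower (52.4%, against 41.3%). The members called included DDIT3 at 0.35 ± 0.11, a call lost when single samples were left out, and the amino acid carrier subunit SLC3A2 at -0.34 ± 0.05. Targets of NFE2L2, the factor of the oxidant response, had 1 of 20 called higher (5%) and 8 lower (40%), with NQO1 at -0.49 ± 0.04. At or above 20 FPKM 3 of 10 were lower (30%, against 41.3%), and under it 5 of 10 (50%, against 15.5%). Metal response genes had none of 10 called higher and 1 lower, with the metallothionein MT2A at 10.4 ± 0.94 and 8.15 ± 1.6 FPKM (adjusted p = 0.12). Immediate-early genes had 5 of 15 called higher (33.3%) and 1 lower (6.67%). Circadian clock genes had 4 of 17 called higher (23.5%) and 2 lower (11.8%), and autophagy and lysosome genes 9 of 36 (25%) and 11 (30.6%). YAP and TEAD targets had 2 of 5 called higher and none lower, and interferon response genes 1 of 6 and 1. The 15 mitochondrially encoded genes listed were not analysed here.

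The earlier vehicle samples place these changes in time, as a description with no test. Averaged over its tested members and set against the 12 h mean, the hypoxia list stood at -0.41 ± 0.02 at 3 h, -0.18 ± 0.10 at 6 h and 0.39 ± 0.08 at 24 h on the log2 scale (SD, n = 4). Its mean was thus higher at each later time. The replication list stood at 0.10 ± 0.02 at 3 h, 0.08 ± 0.02 at 6 h and -0.20 ± 0.03 at 24 h. The heat shock list was at -0.18 ± 0.03, 0.04 ± 0.02 and -0.28 ± 0.02, and the unfolded protein list at -0.09 ± 0.01, 0.02 ± 0.02 and -0.25 ± 0.01. Both chaperone lists were lowest at 24 h. The mevalonate list was at -0.01 ± 0.03, 0.03 ± 0.01 and -0.26 ± 0.02, so that its mean moved little before 12 h.

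**Figure D4:**
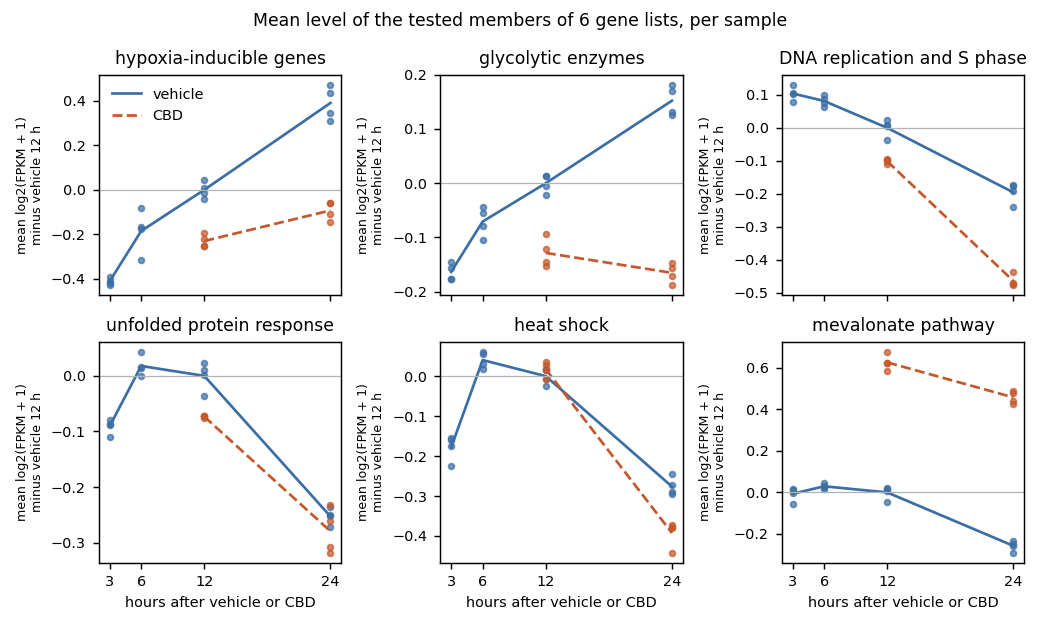
Mean log2(FPKM + 1) of the tested members of 6 gene lists in each sample, minus the vehicle 12 h mean, against hours after vehicle (blue, solid line) or CBD (orange, dashed line, 12 and 24 h only). Points are samples and lines join the means of 4, and in vehicle the hypoxia and glycolysis lists are highest at 24 h while the other 4 lists are lowest there.

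The CBD cultures passed through the same hours, and their 8 samples are separate from the 8 vehicle samples. The change from 12 h to 24 h differed between CBD and vehicle for 1028 of 12621 genes (8.15%) by a test of the difference itself. Of the 34 hypoxia genes 13 passed, 12 of them with a lower change in CBD, and the list median was 0.10 in CBD against 0.27 in vehicle. NDUFA4L2 changed by 0.01 ± 0.16 in CBD, and its change was lower than in vehicle by a log2 difference of -1.52 ± 0.23 (adjusted p = 4.8e-05). BNIP3 changed by 0.02 ± 0.06 in CBD (difference -0.65 ± 0.09, adjusted p = 8.3e-06), and H19 by -0.06 ± 0.08 (difference -1.12 ± 0.12, adjusted p = 2.7e-07). Of the 20 tested members of the glycolysis list 9 passed, all with a lower change in CBD.

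Of the 41 replication genes 19 passed, all with a lower change in CBD, where the list median was -0.38. Of the 9 mevalonate genes 3 passed, ACAT2, HMGCS1 and FDPS, all with a higher change in CBD. Relative to vehicle at 12 h, the mevalonate list already stood at 0.63 ± 0.04 in CBD at 12 h. The hypoxia list stood there at -0.23 ± 0.03, the glycolysis list at -0.13 ± 0.03 and the replication list at -0.10 ± 0.01 (SD, n = 4). NDUFA4L2 was at 1.07 ± 0.23 FPKM in CBD at 12 h, against 2.19 ± 0.43 FPKM in vehicle. The changes in these lists thus start from different levels. Of the 20 unfolded protein genes 4 passed, 3 with a higher and 1 with a lower change in CBD. Of the 16 heat shock genes 4 passed, all with a lower change in CBD. HSPA5 changed by -0.60 ± 0.05 in CBD, a difference of 0.06 ± 0.06 from vehicle. It started from 57.2 ± 2.3 FPKM in CBD at 12 h, against 80.2 ± 3.0 FPKM in vehicle (SD, n = 4).

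**Figure D5:**
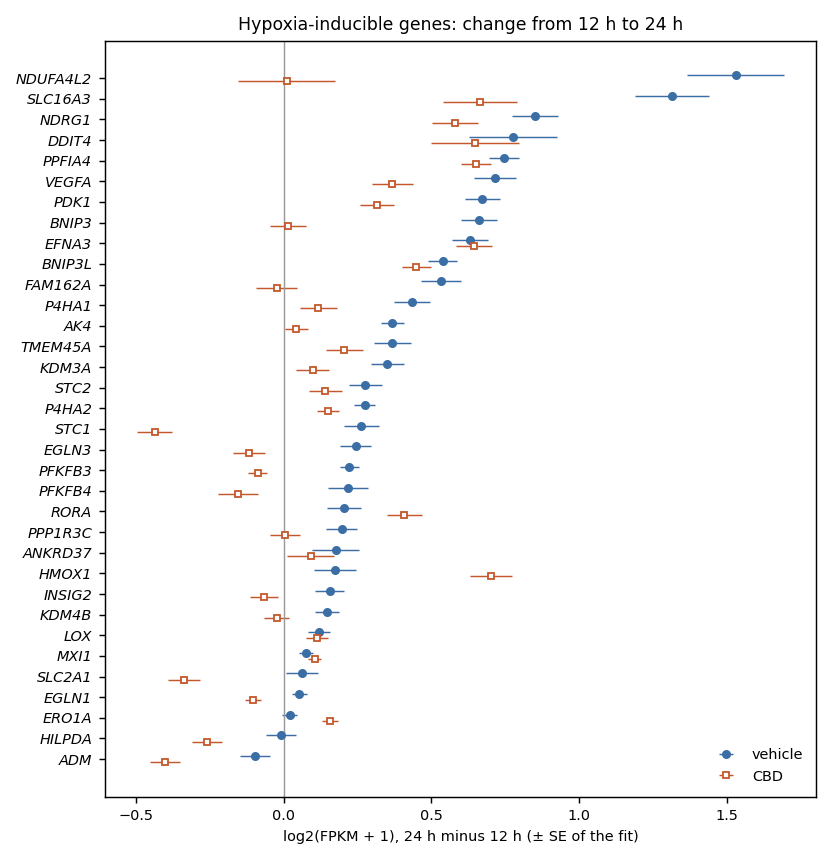
Change from 12 h to 24 h in log2(FPKM + 1), with the standard error of the fit, for the 34 tested hypoxia-inducible genes in vehicle (filled blue circles) and in CBD (open orange squares), with 4 samples at each time. Vehicle changes run from -0.10 for ADM to 1.53 for NDUFA4L2, which stands at 0.01 in CBD.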

How the data were processed

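RNA from SK-N-BE(2) cultures was sequenced as single 50-base reads on 7 lanes. The labels name a Nugen mRNA kit and the study's methods a TruSEQ kit. The authors trimmed with Trimmomatic 0.36, aligned to hg19 with TopHat and derived FPKM with Cufflinks and Cuffdiff. The deposited table holds these FPKM values for 22610 gene entries in 32 samples, with no counts, so absolute depth is unknown, and its annotation is not given in the sources used here. Relative depth, read from the smallest steps of rarely detected genes, was 0.987 to 1.01 in the 12 h and 0.996 to 1.20 in the 24 h vehicle samples. Per-sample FPKM columns left unused numbered 0. A second deposited table holds the authors' own fold changes and p-values and was not used.

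Genes with a mean of at least 1 FPKM over the 32 samples (12621) were analysed as log2(FPKM + 1) with limma 3.58.1 in R 4.3.3, with 8 group means, a trended eBayes prior and Benjamini-Hochberg adjustment (call at 0.01). P-values measure the spread between the 4 samples of a group, pooled over the 8 groups. The study's methods describe treatments prepared in quadruplicate without saying whether the plating was shared. The spread may in part be technical. Splitting lists at 20 FPKM was chosen after the values were seen. The genes named are the 15 largest rises and 15 largest falls among called genes with non-overlapping groups, short RNA entries and doubly placed loci left out, and members of 29 gene lists beside their list's counts. Some of these genes are not reported here. The members and lists were chosen with earlier results of these data known. Gene positions and 50-base words are from GENCODE v44 lifted to GRCh37, in which 101 of 102 named genes were found, and promoters from RefSeq on GRCh38.p14. The fit was tested on simulated data. Same-numbered 12 h and 24 h samples correlated at 0.045 to 0.12 in their deviations, and 7 of 8 samples correlated best with their own number. The numbers were not taken as pairs, since the sample titles give a replicate number and no pairing. Calls under a replicate block are given below. Alternatives were another pseudocount, filter, scaling, sample set, prior, threshold, a depth covariate, a replicate block and each sample left out.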

Additional observations from a re-analysis of the deposited data

Results flagged for a closer look

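Of 204 groups of 4 samples screened over 102 named genes, 9 held a sample that stood far from the other 3 by Dixon's criterion, and chance gives about 1 in 20. For MEG3 the vehicle 24 h replicate 1 was the highest at 304.7 FPKM. For LIX1 the vehicle 12 h replicate 1 was the highest at 5.964 FPKM. For STC1 the vehicle 12 h replicate 4 was the highest at 7.452 FPKM. For EGLN3 the vehicle 12 h replicate 2 was the lowest at 6.038 FPKM. For SQLE the vehicle 24 h replicate 1 was the lowest at 92.61 FPKM. For UHRF1 the vehicle 12 h replicate 4 was the lowest at 42.29 FPKM. For POLA2 the vehicle 24 h replicate 1 was the lowest at 17.81 FPKM. For CDC20 the vehicle 12 h replicate 4 was the lowest at 82.57 FPKM. For DCX the vehicle 12 h replicate 4 was the highest at 9.429 FPKM. 

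For 42 of these genes the change from 12 h to 24 h differed between CBD and vehicle by the limma interaction test at an adjusted p under 0.01. Values are the log2 change in CBD minus that in vehicle, from 4 samples in each of 4 groups. The change was lower in CBD for H3F3A (-3.339), NDUFA4L2 (-1.52), H19 (-1.123), MEG3 (-0.5206), IGF2 (-0.8997), HSPA1B (-0.2785), PDK1 (-0.3571), BNIP3 (-0.6468), FAM162A (-0.557), STC1 (-0.699), EGLN3 (-0.3613), ADM (-0.3062), SLC2A1 (-0.4005), HK2 (-0.3934), PGK1 (-0.3798), ENO1 (-0.2983), TPI1 (-0.4461), PKM (-0.296), PCNA (-0.2616), UHRF1 (-0.4261), MCM5 (-0.2023), CCND1 (-0.1919), CALR (-0.2002), HSPA1A (-0.2465), DNAJB1 (-0.1738), RGS4 (-0.8593), DBH (-0.8775) and MT2A (-2.388). It was higher in CBD for PHYHIP (0.3367), LIX1 (0.2641), ACAT2 (0.2989), HMGCS1 (0.3213), FDPS (0.3682), FDFT1 (0.2436), SREBF2 (0.2339), CDC20 (0.2034), KLF9 (0.433), ETV4 (0.3437), ETV5 (0.2641), STMN4 (0.4986), DDIT3 (0.8525) and NQO1 (0.3235). The H3F3A value is uncertain, since the gene stood near 0 in some samples and at several FPKM in others of the same group.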

How the results depend on the processing

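The 4977 calls became 4971 and 4978 with 0.1 and 5 added before the logarithm and 12 when a log2 size of 1 was also required. The share called higher, 40.5%, was 50.2% without the level filter, 27.3% at a mean FPKM of at least 5, 51.6% with median-ratio scaling, 38.9% with quantile normalization and 91.7% at the log2 size of 1, and the cause was not tested. Leaving out 1 vehicle sample gave 4178 to 4904 calls and shares of 39.2% to 41.4%. The 1028 genes whose change differed between CBD and vehicle became 823 to 949 without 1 sample, 2056 at an adjusted p of 0.05 and 11 with a log2 size of 1. Replicate numbers were not taken as pairs, although 7 of 8 samples correlated best with their own number, which is a hint from the data only. A replicate block gave 5349 calls over all groups, and 2379 calls with a share of 48.6% higher over the samples at 12 h and 24 h only, where 15 named genes lost their call with the difference unchanged, among them NDUFA4L2 (adjusted p = 0.011), HK2, ENO1, PKM, STC1 and EGLN3. Of 2125 values of 102 named genes under alternatives, 2067 kept direction and call, 51 lost and 6 gained the call, and FDPS reversed under quantile normalization (0.0053, adjusted p = 0.90). Medians of 7 of 28 lists changed sign under some alternative, those of the circadian, interferon, LXR, neuronal, secretory, SREBP and YAP lists. With no read counts deposited, depth could limit low genes by an amount that is unknown.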
